A study of Homo sapiens with 12 samples.

Results

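Whether FOXA1 siRNA changed the response of SKBR-3 cells to lapatinib was read from 1 model of all 12 RNAseq libraries of the series (12 of 12 samples, 3 in each of 4 groups). SKBR-3 is an established breast cancer cell line with amplified HER2 and without the estrogen receptor. The cells received either a non-targeting (NT) siRNA pool or a pool against FOXA1, and then DMSO or 300 nM lapatinib, which inhibits the kinases HER2 and EGFR, for 24 h. The labels place the transfection 48 h ahead of the drug, whereas the methods give 24 h. All groups are therefore the same cell line, all carry an siRNA, and each siRNA is represented by 1 pool.

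FOXA1 is a forkhead pioneer factor, which binds closed chromatin and opens it for other factors, and it maintains the luminal identity of mammary epithelial cells. HER2 signals through the PI3K-AKT and RAS-ERK pathways. When the kinase is inhibited, FOXO factors move into the nucleus and activate their targets, luminal differentiation genes and receptors are induced, and the E2F, MYC and sterol programs that drive growth decline.

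The measure used throughout is the interaction. It is the log2 lapatinib response (lapatinib against DMSO) with FOXA1 siRNA minus the log2 lapatinib response with NT siRNA, and it equals the log2 effect of FOXA1 siRNA in lapatinib minus that in DMSO. At 0 the fold effects of siRNA and drug multiply. A negative interaction means a lower response with FOXA1 siRNA (a smaller rise, a larger fall or a turn from rise to fall), and a positive one means a higher response (a smaller fall, a larger rise or a turn from fall to rise). Interactions were tested with edgeR's quasi-likelihood test on the deposited expected counts (estimated reads per gene), and genes with a Benjamini-Hochberg adjusted p under 0.05 count as called. Normalized counts are expected counts divided by the TMM-scaled library size at the average depth of the 12 libraries. Adjusted p-values come from that test unless stated, and values after ± are SE.

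The totals of the libraries were between 25749578 and 32271850 expected counts, with a median of 30542430. The epithelial markers EPCAM, KRT8, KRT18 and KRT19 and the HER2 amplicon genes ERBB2 and GRB7 were high in each library. CDH1, the epithelial cadherin, was at 1.9 to 18.9 normalized counts, and ESR1 was low. Of the defining immune markers, PTPRC, LYZ and TYROBP were near 0, although CD68 was at 431 to 1248. The fibroblast markers COL1A2, COL3A1 and LUM were near 0, while COL1A1 was at 269.8 to 520.5. The targeted gene itself had FOXA1 normalized counts of 8444, 8307 and 8765 (NT siRNA, DMSO), 12669.5, 12166 and 13174 (NT siRNA, lapatinib), 1159.8, 1362 and 1563 (FOXA1 siRNA, DMSO) and 1641, 1888 and 2383 (FOXA1 siRNA, lapatinib). The siRNA groups did not overlap, and the FOXA1 interaction was -0.04 ± 0.17 (adjusted p = 0.928), so the fitted reduction was -2.64 in DMSO and -2.68 in lapatinib on the log2 scale. Nothing in the labels says that replicates came from separate cultures, so p-values measure the spread between these libraries, which may be technical. In bulk RNA, a change in the share of cells in a state and a change in RNA per cell cannot be told apart.

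Where the lists below hold a shared promoter element, windows of the promoters of called members are shown, so that the groups can be read as sequence as well as values. The windows were taken from the RefSeq promoter table of GRCh38.p14, each running from 180 bases before to 20 bases after the annotated start, 5′ to 3′ on the strand of the gene. They belong to called members whose window holds the element, taken in order of p after genes in part of the genome were left out. The genes shown are therefore not necessarily those with the smallest p. The windows were chosen after the values were seen. Capitals mark the element on either strand.

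MRTO4 and RRP9 belong to the ribosome biogenesis list, and the capitals are the E-box CACGTG, the sequence that MYC and MAX bind. MRTO4 lies at chr1:19251625-19251824, plus strand, and RRP9 at chr3:51941885-51942084, minus strand.
MRTO4: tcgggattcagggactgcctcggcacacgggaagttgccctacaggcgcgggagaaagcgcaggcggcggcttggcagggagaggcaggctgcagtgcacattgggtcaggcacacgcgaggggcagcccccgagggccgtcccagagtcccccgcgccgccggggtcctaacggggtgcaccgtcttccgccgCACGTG
RRP9: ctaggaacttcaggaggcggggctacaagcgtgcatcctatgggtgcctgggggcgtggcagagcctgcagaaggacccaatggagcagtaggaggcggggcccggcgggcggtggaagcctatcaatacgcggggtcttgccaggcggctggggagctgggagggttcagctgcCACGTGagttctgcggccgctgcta

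CDC6 and MCM7 belong to the DNA replication list, and the capitals are an E2F element (TTTCGCGC or TTTGGCGC). CDC6 lies at chr17:40287699-40287898, plus strand, and MCM7 at chr7:100101378-100101577, minus strand.
CDC6: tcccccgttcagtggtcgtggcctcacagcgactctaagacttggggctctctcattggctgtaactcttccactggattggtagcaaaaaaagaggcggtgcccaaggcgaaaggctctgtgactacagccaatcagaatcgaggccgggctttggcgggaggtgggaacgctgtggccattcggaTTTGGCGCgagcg
MCM7: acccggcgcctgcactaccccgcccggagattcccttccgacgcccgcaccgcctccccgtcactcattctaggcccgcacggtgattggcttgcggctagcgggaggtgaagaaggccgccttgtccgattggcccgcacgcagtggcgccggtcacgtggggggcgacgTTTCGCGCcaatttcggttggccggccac

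CDK1 and ZWINT belong to the mitosis list, and the capitals match the letters of the cell cycle homology region CHR (TTTGAA or TTCGAA), an element that the DREAM and MuvB complexes bind. The match lies 161 bases before the start in CDK1 and 31 in ZWINT. Whether the marked letters are the bound element was not tested. CDK1 lies at chr10:60778151-60778350, plus strand, and ZWINT at chr10:56361240-56361439, minus strand.
CDK1: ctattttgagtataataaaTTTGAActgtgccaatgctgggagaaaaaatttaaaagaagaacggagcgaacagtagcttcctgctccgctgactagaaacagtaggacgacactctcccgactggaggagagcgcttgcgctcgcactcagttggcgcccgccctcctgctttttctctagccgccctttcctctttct
ZWINT: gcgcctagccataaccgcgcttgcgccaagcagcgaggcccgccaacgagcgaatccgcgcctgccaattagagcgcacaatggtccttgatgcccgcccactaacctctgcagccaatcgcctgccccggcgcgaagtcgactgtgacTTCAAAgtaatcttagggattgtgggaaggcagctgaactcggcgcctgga

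C17orf58 and TXNIP had negative interactions, and the capitals are a forkhead element (GTAAACA or GTCAACA), the letters that FOXA and FOXO factors bind. Both were picked for holding these letters, so they do not show that genes with negative interactions share the element. C17orf58 lies at chr17:67996450-67996649, minus strand, and TXNIP at chr1:145996560-145996759, minus strand.
C17orf58: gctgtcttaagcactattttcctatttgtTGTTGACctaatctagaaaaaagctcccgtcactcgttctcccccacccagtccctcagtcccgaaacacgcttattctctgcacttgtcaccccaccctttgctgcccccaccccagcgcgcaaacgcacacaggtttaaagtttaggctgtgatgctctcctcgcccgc
TXNIP: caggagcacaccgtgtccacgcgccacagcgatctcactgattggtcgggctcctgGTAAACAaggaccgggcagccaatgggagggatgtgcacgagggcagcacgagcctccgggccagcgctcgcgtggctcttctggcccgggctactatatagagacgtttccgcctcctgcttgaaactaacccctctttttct

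In 300-base windows (250 bases before to 50 after the start, both strands), the E-box was present in 33.8% of the 68 ribosome biogenesis promoters in the table and in 7.43% of all 27305 promoters. The E2F element was present in 26.7% of 45 DNA replication promoters and in 1.18% of all promoters. The CHR element was present in 74.1% of 58 mitosis promoters and in 16.6% of all promoters. The forkhead element was present in 5.67% of all promoters. All promoters include those of genes that were not tested, so these shares are not set against expressed genes. Other letters were frequent too: CCAAT was in 72.4% of mitosis, 57.8% of DNA replication and 36.8% of ribosome biogenesis promoters, against 35.7% of all promoters. A comparison of the elements over the called genes, or over those with the largest interactions, was void, since under 80% of those genes had a promoter in the table. The same holds for the luminal transcription factor, lysosome and cholesterol lists. Of the 51 lysosome and autophagy promoters that were in the table, 11 (21.6%) held the E-box, and that list had most of its calls on the negative side. These matches describe letters and not binding.

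Of 14012 genes tested, 449 (3.2%) had a negative and 559 (3.99%) a positive interaction. With the replicate number as a block, 1292 genes (9.22%) were negative and 1561 (11.1%) positive, and these held all 449 and 559. The called effects were moderate in size. The median interaction was -0.50 for the negative and 0.47 for the positive genes, 224 and 250 of them reached 0.5 in size, and 72 and 73 reached 1. The median over all genes tested was 0.01, and 48.9% of genes were below 0 and 51.1% above it. Without 1 library, the number of negative genes lay between 242 and 583 and that of positive genes between 300 and 782. These and all later fits without 1 library had no replicate block. They ignore the pairing by replicate number, which is then no longer balanced over the groups. The negative count was lower by over 1.5 times without NT DMSO replicate 1 (255) or 3 (271), NT lapatinib replicate 1 (289) or 3 (275), FOXA1 siRNA DMSO replicate 1 (266) or 3 (264), or FOXA1 siRNA lapatinib replicate 1 (242). The positive count was lower by over 1.5 times without NT DMSO replicate 1 (302) or 3 (342), NT lapatinib replicate 3 (313), FOXA1 siRNA DMSO replicate 1 (355) or 3 (300), or FOXA1 siRNA lapatinib replicate 1 (305).

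The commonest shape in both directions was a lapatinib response that was smaller with FOXA1 siRNA. Among the negative genes, 266 had a smaller fitted rise, 122 turned from a fitted rise to a fitted fall, and 61 had a larger fall. Among the positive genes, 379 had a smaller fitted fall, 122 turned from fall to rise, and 58 had a larger rise. The median response of the negative genes went from 0.59 with NT siRNA to 0.12 with FOXA1 siRNA, and that of the positive genes from -0.73 to -0.30. Both responses passed the test on opposite sides of 0 in 40 negative and 26 positive genes. The values of responses and interaction share the same libraries, so these shapes describe the called genes and do not test them.

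**Figure D1:**
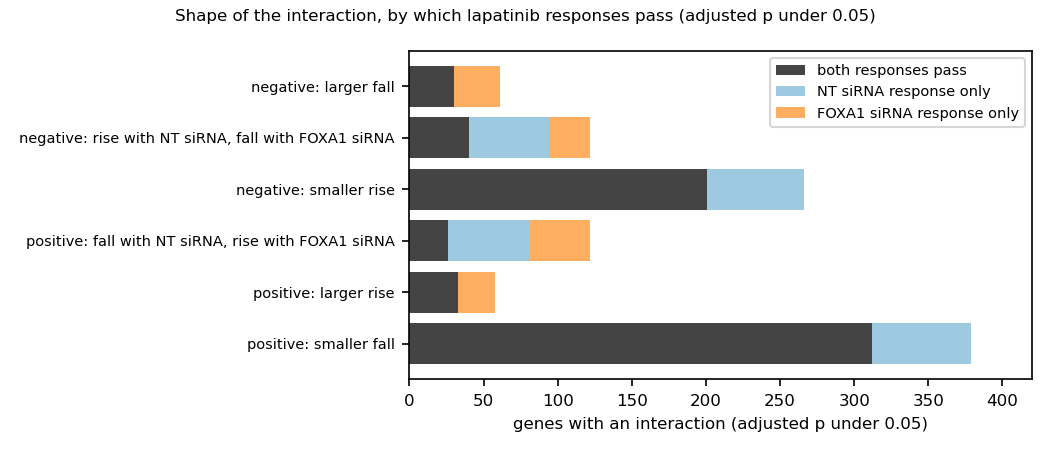
Number of genes (horizontal axis) with a negative or positive interaction, by the shape of the fitted lapatinib response with FOXA1 siRNA relative to NT siRNA. Colors give which of the lapatinib responses passed an adjusted p under 0.05, and a smaller fall (379 genes) and a smaller rise (266 genes) are the longest bars.

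**Figure D2:**
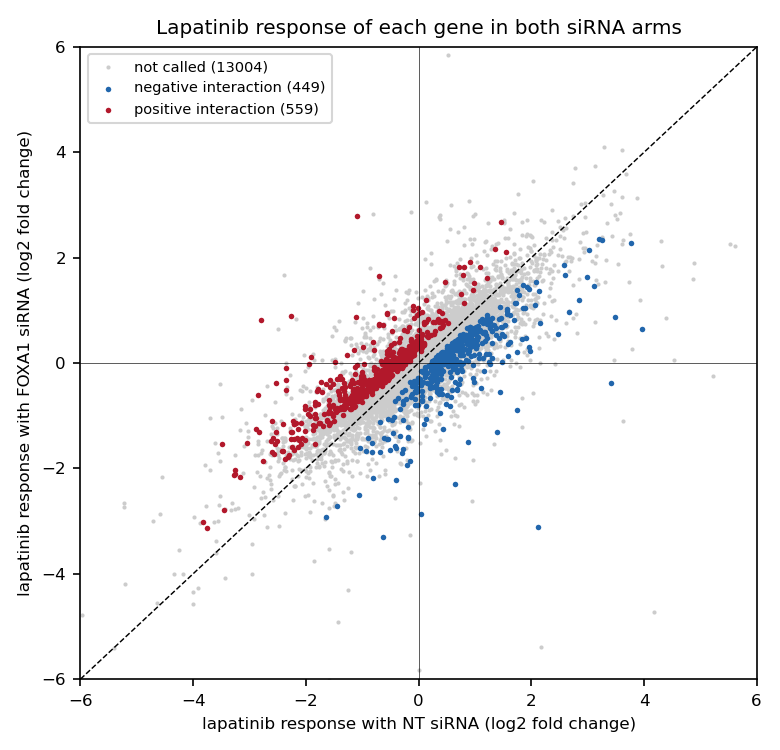
Log2 lapatinib response of each gene with NT siRNA (horizontal axis) and FOXA1 siRNA (vertical axis) for 14012 genes, of which 4 lie outside the plotted range. The dashed line marks equal responses, the 449 genes with a negative interaction lie below it and the 559 with a positive one above it, and most called genes lie between the line and a response of 0 with FOXA1 siRNA.

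Read from the siRNA, the same genes divide differently. The median effect of FOXA1 siRNA on the negative genes was 0.10 in DMSO and -0.37 in lapatinib, and on the positive genes -0.11 in DMSO and 0.37 in lapatinib. The fitted effect of the siRNA changed sign between DMSO and lapatinib in 185 negative and 270 positive genes. It was a larger fall in lapatinib in 172 negative genes and a larger rise in 207 positive genes, and it shrank in lapatinib in the remaining 92 and 82.

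Gene lists written from general knowledge, with earlier results of these data known, were used to describe which pathways held the interactions. Ribosome biogenesis, DNA replication, mitosis, DNA repair, cholesterol synthesis and glycolysis lay on the positive side. Luminal transcription factors, FOXO targets and lysosomal genes had most of their calls on the negative side. Cytosolic ribosomal proteins and the proteasome held no call. Responses below are given as NT siRNA to FOXA1 siRNA. Counts with the block are to be read beside the 9.22% negative and 11.1% positive of all genes in that fit. Where edgeR called 0 negative members, 0 also passed an unadjusted p under 0.05 or DESeq2 in ribosome biogenesis, mitosis, DNA repair, G1 genes, heat shock proteins, fatty acid synthesis, tRNA synthetases and antigen presentation. In cholesterol synthesis 1 negative member passed the unadjusted p and 0 passed DESeq2, and in glycolysis these counts were 4 and 2.

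**Figure D3:**
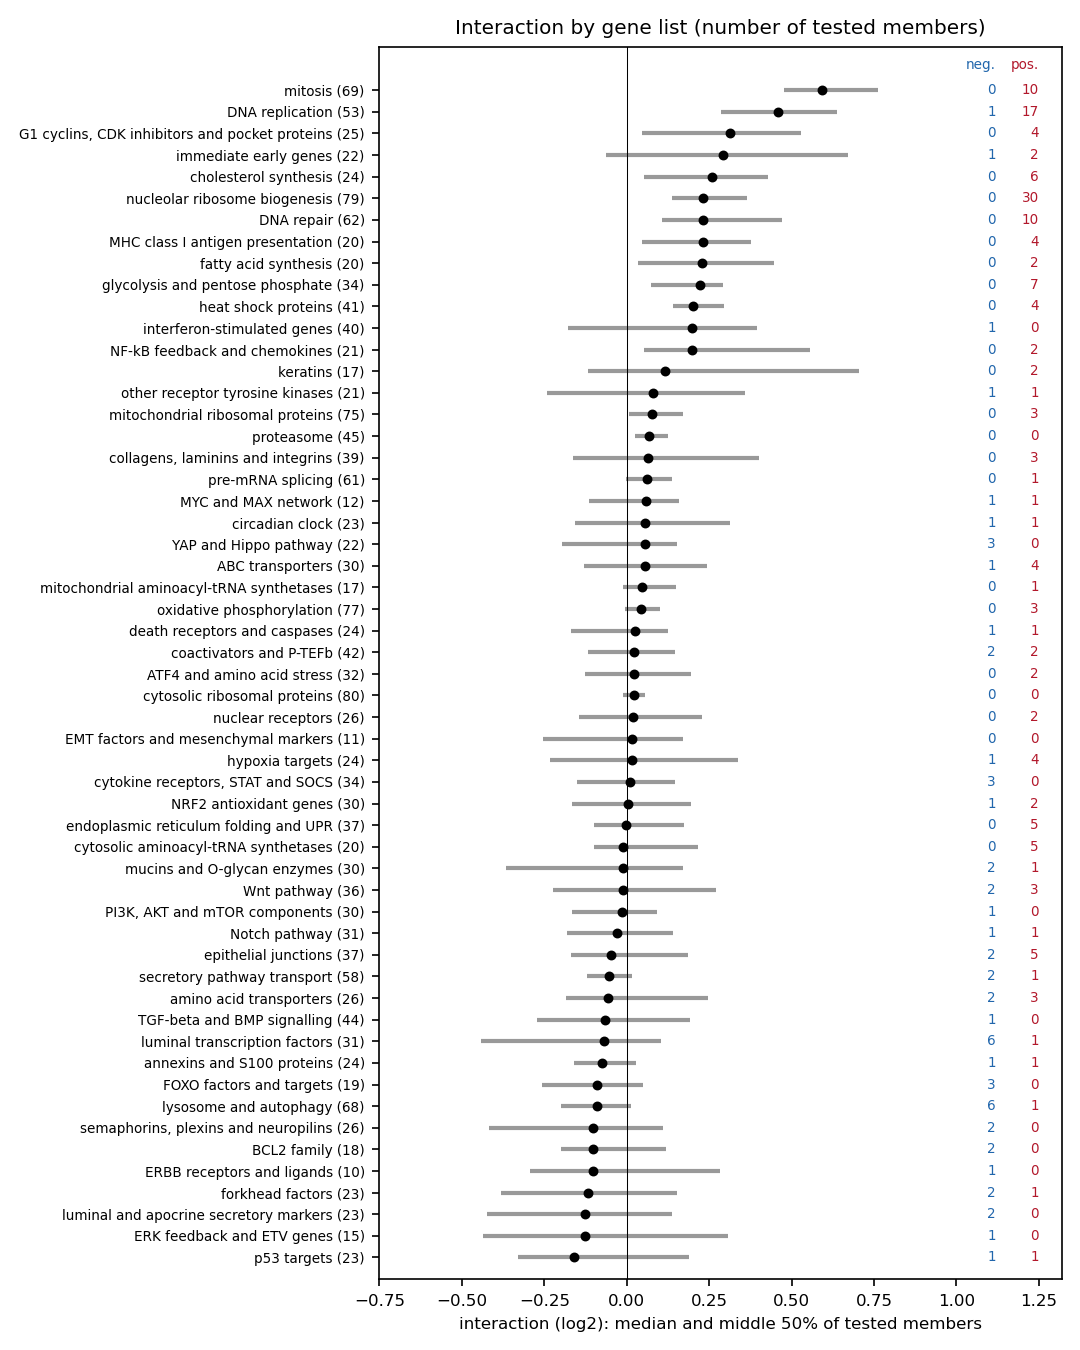
Median interaction on the log2 scale (points) and the middle 50% of members (bars) for the 55 lists with at least 8 tested members, with the number of tested members in brackets and the called members in each direction at the right. Mitosis (median 0.59) and DNA replication (0.46) are highest, and p53 targets (-0.16) lowest.

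Nucleolar ribosome biogenesis, the assembly of ribosomal subunits from precursor RNA in the nucleolus, had the most called members. All 79 members were tested, and 30 (38.0%, against 3.99% of all genes) were positive and 0 negative. The block gave 51 positive and 1 negative. The median response of the list went from -0.62 (NT siRNA) to -0.34 (FOXA1 siRNA), with a median interaction of 0.23 (0.01 over all genes), and 72 of 79 members were above 0. FOXA1 siRNA had a median effect of 0.06 in DMSO and 0.30 in lapatinib on these genes, so the difference between siRNAs was mainly in the lapatinib libraries. Without 1 library, the number of positive members was between 17 (without FOXA1 siRNA lapatinib replicate 1) and 31, also falling to 18 without NT lapatinib replicate 3, while the median stayed between 0.23 to 0.27.

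NOP56, a core protein of the box C/D snoRNPs that guide rRNA methylation (chr20:2652632-2658393 in RefSeq GRCh38), had normalized counts of 8519, 8576 and 8792 (NT siRNA, DMSO), 3916, 3966 and 3589 (NT siRNA, lapatinib), 6688, 7483 and 6821 (FOXA1 siRNA, DMSO) and 4573, 4749 and 4336 (FOXA1 siRNA, lapatinib). The 3 lapatinib libraries with FOXA1 siRNA were all above the 3 with NT siRNA, and the order was the opposite in DMSO. The interaction of NOP56 was 0.55 ± 0.08 (adjusted p = 0.00212), from a response of -1.17 to -0.62. DKC1, the pseudouridine synthase of the H/ACA snoRNPs, had normalized counts of 3964, 4353 and 4046 (NT siRNA, DMSO), 2225, 2194 and 1909 (NT siRNA, lapatinib), 5336, 5306 and 5082 (FOXA1 siRNA, DMSO) and 4055, 4155 and 3876 (FOXA1 siRNA, lapatinib). Here FOXA1 siRNA libraries were higher in both treatments without overlap, by 0.35 in DMSO and 0.93 in lapatinib, and the interaction of DKC1 was 0.59 ± 0.09 (adjusted p = 0.00245). The RNA methyltransferase NOP2 (0.44 ± 0.07), the nucleolar phosphoprotein NOLC1 (0.45 ± 0.07), the large-subunit assembly factors BRIX1 (0.37 ± 0.06) and NOP16 (0.46 ± 0.08), and MRTO4 (0.38 ± 0.07) and RRP9 (0.46 ± 0.10), whose promoters are shown above, were also positive. BOP1, a large-subunit processing factor, had the largest value of the called members (1.09, response -1.39 to -0.30). NOP56, DKC1, NOP2, NOLC1, BRIX1 and NOP16 stayed called without any 1 of the 12 libraries.

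The neighbouring steps of protein synthesis did not show the same counts. Of 80 cytosolic ribosomal protein genes, edgeR and DESeq2 called 0 in either direction, 2 were positive at an unadjusted p under 0.05, 1 was positive with the block, and the median interaction was 0.02. Of 75 mitochondrial ribosomal protein genes, 3 were positive, MRPL4 (0.36), MRPL41 (0.34) and MRPL17 (0.32), with 14 positive and 1 negative under the block. The count was 7 without NT DMSO replicate 2, and 1 without NT DMSO replicate 1 or 3 or replicate 1 of either FOXA1 siRNA group. Of 20 cytosolic aminoacyl-tRNA synthetases, 5 (25%) were positive, with 6 positive and 1 negative under the block, although the median of the list was -0.01. These were FARSA (0.42 ± 0.06) and FARSB (0.40), both subunits of the phenylalanyl enzyme, VARS (0.54 ± 0.09), LARS (0.34 ± 0.06) and KARS (0.23), the enzymes for valine, leucine and lysine. MYC, a regulator of ribosome biogenesis, had an interaction of 0.52 ± 0.09 (adjusted p = 0.00457). Its normalized counts were 6072, 6274 and 6136 (NT siRNA, DMSO), 4215, 4786 and 3912 (NT siRNA, lapatinib), 10141, 10329 and 10876 (FOXA1 siRNA, DMSO) and 10417, 10649 and 10312 (FOXA1 siRNA, lapatinib), so that the lapatinib response of -0.52 with NT siRNA was 0.00 with FOXA1 siRNA. MXD1, an antagonist that competes with MYC for MAX, was on the other side (-0.42 ± 0.10, adjusted p = 0.0291, kept in 5 of the 12 fits without 1 library).

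DNA replication held 17 positive members and 1 negative member among 53 tested (32.1% and 1.89%, against 3.99% and 3.2% of all genes). The block gave 31 positive and 1 negative. The median response went from -1.62 (NT siRNA) to -1.12 (FOXA1 siRNA), the median interaction was 0.46, and 50 of 53 members were above 0. The median effect of FOXA1 siRNA was -0.41 in DMSO and 0.08 in lapatinib. In DMSO 38 members passed the test as lower with FOXA1 siRNA and 1 as higher, and in lapatinib 8 and 12. The positive members numbered between 9 and 30 without 1 library, 30 of them without NT DMSO replicate 2, and 9 without NT DMSO replicate 1 or 3, NT lapatinib replicate 1 or FOXA1 siRNA DMSO replicate 3. Leaving out NT lapatinib replicate 3, FOXA1 siRNA DMSO replicate 2 or FOXA1 siRNA lapatinib replicate 1 gave 10, and FOXA1 siRNA lapatinib replicate 2 gave 11.

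POLD2, an accessory subunit of DNA polymerase delta (chr7:44114680-44124325), had normalized counts of 12382, 10691 and 11932 (NT siRNA, DMSO), 5470.0, 5266 and 5343 (NT siRNA, lapatinib), 10996, 10748 and 10626 (FOXA1 siRNA, DMSO) and 6999, 6866 and 6703 (FOXA1 siRNA, lapatinib). The siRNA groups overlapped in DMSO and were separate in lapatinib, where FOXA1 siRNA was higher. Its interaction was 0.47 ± 0.07 (adjusted p = 0.00292). The catalytic subunit POLD1 had 0.78 ± 0.14, the clamp loader subunits RFC3 and RFC4 had 0.79 ± 0.12 and 0.70 ± 0.14, and the origin recognition genes ORC6L and ORC2L had 0.73 ± 0.14 and 0.37 ± 0.08. These 5 calls and that of POLD2 held in each fit without 1 library. The helicase gene MCM7 (0.73), the helicase loader CDC6 (0.66), the polymerase alpha subunit POLA2 (0.84) and thymidine kinase TK1 (0.63) were positive as well.

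The exception was CHAF1B, a subunit of the histone chaperone CAF-1, with an interaction of -0.71 ± 0.12 (adjusted p = 0.0044). Its normalized counts were 1496, 1278 and 1451 (NT siRNA, DMSO), 1726, 1993 and 1877 (NT siRNA, lapatinib), 1039, 880.0 and 958 (FOXA1 siRNA, DMSO) and 732, 822 and 774 (FOXA1 siRNA, lapatinib). Its lapatinib response turned from 0.41 to -0.30, while CHAF1A, another subunit of the same complex, had a positive interaction (0.55) on a response of -2.37 to -1.82.

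Mitosis genes encode the kinases, kinetochore and spindle proteins of cell division. In that list, each of the 69 tested members had an interaction above 0, against 51.1% of all genes, with a median of 0.59 and a range from 0.08 to 1.5. Of these, 10 (14.5%) were positive and 28 with the block. The median response went from -1.33 (NT siRNA) to -0.68 (FOXA1 siRNA), and the median effect of the siRNA was -0.35 in DMSO and 0.30 in lapatinib. The spread between replicate numbers was large here. The median interaction computed within replicate numbers 1, 2 and 3 was 0.87, 0.35 and 0.68. Without NT lapatinib replicate 2, 50 members were positive and the median was 0.85, and without NT DMSO replicate 2, 15 were positive. In the other fits without 1 library, between 2 and 9 were positive and the median was at least 0.45, with 2 positive without NT DMSO replicate 1 or 3, NT lapatinib replicate 1 or FOXA1 siRNA DMSO replicate 3, 3 without FOXA1 siRNA lapatinib replicate 1, and 4 without NT lapatinib replicate 3, FOXA1 siRNA DMSO replicate 2 or FOXA1 siRNA lapatinib replicate 2.

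CDK1, the kinase that starts mitosis (chr10:60778331-60794852), had normalized counts of 7213, 5048 and 7231 (NT siRNA, DMSO), 883, 1349.5 and 983 (NT siRNA, lapatinib), 5436, 4203 and 4883 (FOXA1 siRNA, DMSO) and 2039, 2685 and 2065 (FOXA1 siRNA, lapatinib). In both siRNA arms replicate 2 was the lowest in DMSO and the highest in lapatinib, and the lapatinib libraries of the siRNAs did not overlap. The interaction of CDK1 was 1.5 ± 0.25 (adjusted p = 0.00457), from a response of -2.60 to -1.10. UBE2C, the ubiquitin-conjugating enzyme of the anaphase-promoting complex, had normalized counts of 3926, 2697 and 3669.9 (NT siRNA, DMSO), 795, 1302 and 855 (NT siRNA, lapatinib), 2976, 2408 and 2626 (FOXA1 siRNA, DMSO) and 1751, 2211 and 1582 (FOXA1 siRNA, lapatinib) and an interaction of 1.27 ± 0.27. CDK1 and UBE2C kept their calls without any 1 library. The kinetochore gene ZWINT (0.64 ± 0.15), the checkpoint gene MAD2L1 (0.86 ± 0.20), the chromosomal passenger INCENP (0.73 ± 0.18) and the cohesin protector SGOL1 (0.87 ± 0.21) kept theirs in 8, 5, 4 and 4 of the 12 such fits.

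The regulators of cell cycle entry were on the same side. Of 25 tested G1 cyclins, CDK inhibitors, E2F and pocket protein genes, 4 (16%) were positive and 9 with the block, none was negative, and the median interaction was 0.31. Without NT DMSO replicate 2 the positive members numbered 7. They numbered 1 without FOXA1 siRNA DMSO replicate 3 or FOXA1 siRNA lapatinib replicate 1, and 2 without NT DMSO replicate 1 or 3 or NT lapatinib replicate 3. CDK4, the kinase of the D-type cyclins, had an interaction of 0.42 ± 0.07 (adjusted p = 0.00439), from -0.91 to -0.49, and kept its call in each fit without 1 library. The transcription factor E2F1 fell in lapatinib in both arms, from 1453, 1091 and 1402 to 90.3, 81.5 and 108 normalized counts with NT siRNA and from 1061, 919 and 884 to 128, 129.7 and 95.2 with FOXA1 siRNA. The lapatinib libraries of the siRNAs overlapped, and the interaction of E2F1 was 0.80 ± 0.22 (adjusted p = 0.0443, kept in 3 of the 12 fits without 1 library). E2F3 (0.64 ± 0.14) and E2F8 (1.16 ± 0.26) kept theirs in 8 and 7 of those fits.

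DNA repair had 10 positive members of 62 tested (16.1%) and none negative, with 17 and 1 under the block, and a median interaction of 0.23. FANCD2, the central protein of the Fanconi pathway of crosslink repair, had normalized counts of 1495, 1237 and 1540.2 (NT siRNA, DMSO), 339.9, 395 and 386 (NT siRNA, lapatinib), 855, 829 and 827 (FOXA1 siRNA, DMSO) and 447, 522 and 409 (FOXA1 siRNA, lapatinib). With FOXA1 siRNA it was lower in DMSO and higher in lapatinib, without overlap in either, and the interaction of FANCD2 was 1.07 ± 0.14 (adjusted p = 0.00172). The RecQ helicase BLM had 1.52 ± 0.25, with normalized counts of 894, 674 and 881 (NT siRNA, DMSO), 83.2, 127 and 86.2 (NT siRNA, lapatinib), 604, 453 and 556 (FOXA1 siRNA, DMSO) and 182, 214 and 165 (FOXA1 siRNA, lapatinib). The recombination gene XRCC3 (0.68 ± 0.14) was positive too, and these 3 calls held in each fit without 1 library. FANCI, the partner of FANCD2 (0.78 ± 0.18), and the checkpoint kinase CHEK2 (0.85 ± 0.20) kept theirs in 8 and 7 of the 12. Not all members were genes reduced by lapatinib: XPC, the damage sensor of nucleotide excision repair, and APEX1, the endonuclease of base excision repair, had responses of 0.44 to 0.72 and 0.10 to 0.36. The number of positive members was 4 without NT DMSO replicate 3 and 18 without NT DMSO replicate 2, the lowest and highest of the 12 fits. It was 5 without NT DMSO replicate 1 or NT lapatinib replicate 1 or 3, and 6 without FOXA1 siRNA DMSO replicate 3 or FOXA1 siRNA lapatinib replicate 1 or 2.

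Cholesterol synthesis genes, targets of the sterol regulator SREBP2, had 6 positive members of 24 tested (25%) and none negative, with 12 and 1 under the block. Their median response went from -0.68 (NT siRNA) to -0.38 (FOXA1 siRNA), and 21 of 24 were above 0. INSIG1, the sterol-sensing retention factor of SREBP (chr7:155297878-155310235), had normalized counts of 1355, 1404 and 1416 (NT siRNA, DMSO), 307, 289 and 361 (NT siRNA, lapatinib), 1074, 1142 and 1085 (FOXA1 siRNA, DMSO) and 378, 364 and 450.3 (FOXA1 siRNA, lapatinib). FOXA1 siRNA libraries were lower in DMSO and higher in lapatinib, without overlap in either. The interaction of INSIG1 was 0.65 ± 0.13 (adjusted p = 0.0105), and it stayed called without any 1 library. The isoprenoid enzymes IDI1 (0.43 ± 0.11) and FDPS (0.50 ± 0.13), and the late sterol enzymes DHCR7 (0.30 ± 0.08) and EBP (0.54 ± 0.15) kept their calls in 2 to 4 of the 12 fits. The positive members numbered 1 without any of NT DMSO replicate 1 or 3, NT lapatinib replicate 1 or 2, or FOXA1 siRNA DMSO replicate 1 or FOXA1 siRNA lapatinib replicate 3, and 9 without NT DMSO replicate 2. They numbered 2 without FOXA1 siRNA DMSO replicate 3 or FOXA1 siRNA lapatinib replicate 1, and 3 without replicate 2 of either FOXA1 siRNA group. In the fatty acid list, the acyl-CoA synthetases ACSL4 (1.3 ± 0.29) and ACSL3 (0.55 ± 0.13) were the 2 positive members of 20, and 9 were positive with the block. Their number was 5 without FOXA1 siRNA lapatinib replicate 2 and 0 without NT DMSO replicate 1, and it was 1 without NT DMSO replicate 3, FOXA1 siRNA DMSO replicate 3 or FOXA1 siRNA lapatinib replicate 1 or 3.

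Glycolysis and the pentose phosphate pathway had 7 positive members of 34 (20.6%) and none negative, with 20 and 4 under the block, and a median interaction of 0.22. ENO1, the enolase, had normalized counts of 69618, 64508 and 65871 (NT siRNA, DMSO), 41679, 37859 and 40512 (NT siRNA, lapatinib), 81155, 76363 and 78152 (FOXA1 siRNA, DMSO) and 64686, 57153 and 61496 (FOXA1 siRNA, lapatinib). FOXA1 siRNA was higher in both treatments without overlap, by 0.24 in DMSO and 0.61 in lapatinib, and the interaction of ENO1 was 0.37 ± 0.07 (adjusted p = 0.0109). The phosphofructokinases PFKM (0.37 ± 0.06) and PFKP (0.58 ± 0.15), the aldolases ALDOC (0.39 ± 0.08) and ALDOA (0.22) and the lactate dehydrogenase LDHB (0.23 ± 0.05) had smaller falls with FOXA1 siRNA. The glucose transporter SLC2A1 had a larger rise (0.27 to 0.55). Without 1 library, between 3 (without FOXA1 siRNA DMSO replicate 3) and 9 (without NT lapatinib replicate 2) were positive, with 4 without NT DMSO replicate 1 or 3, NT lapatinib replicate 1 or FOXA1 siRNA DMSO replicate 1. Oxidative phosphorylation, with 3 positive of 77 tested (3.9%) and a median of 0.04, was at the background, and with the block it had 10 positive and 1 negative. Without NT DMSO replicate 2, 6 were positive, and 1 was positive without NT DMSO replicate 1 or 3, NT lapatinib replicate 2, FOXA1 siRNA DMSO replicate 2 or 3 or FOXA1 siRNA lapatinib replicate 1 or 3.

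Heat shock proteins and chaperonins had 4 positive members of 41 (9.76%), 21 with the block, and 39 of 41 above 0, with a median interaction of 0.20. The chaperonins CCT5 (0.42 ± 0.08), CCT6A (0.23) and HSPD1 (0.44 ± 0.10) and the HSP110 relative HSPA4L (0.53 ± 0.13) were the called members, and CCT5 kept its call without any 1 library. HSPA4L depended on the scale: in normalized counts the difference of the responses was -83.4, opposite in sign to the log2 interaction. Without 1 library, between 1 and 10 members were positive, 10 without NT DMSO replicate 2 and 1 without FOXA1 siRNA DMSO replicate 2 or 3, FOXA1 siRNA lapatinib replicate 1, NT DMSO replicate 1 or 3 or NT lapatinib replicate 3. The proteasome had 0 members of 45 called by edgeR or DESeq2, with 4 positive and 1 negative at an unadjusted p under 0.05 and 4 positive with the block. Without NT DMSO replicate 2, 3 were positive.

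**Figure D4:**
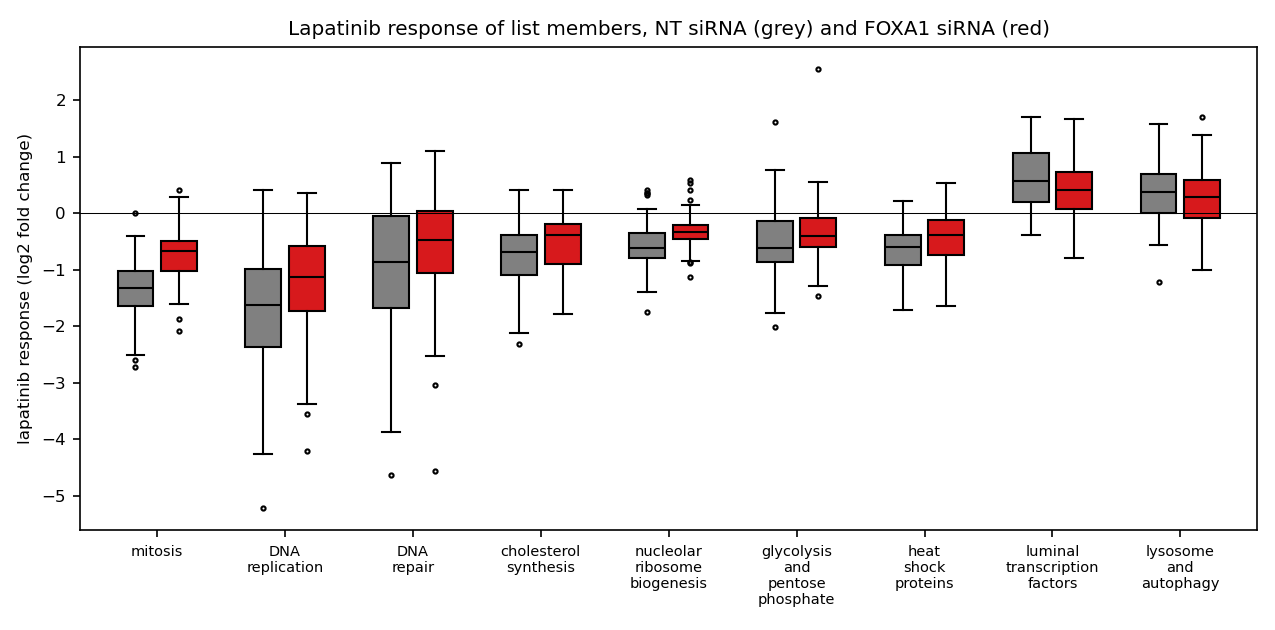
Log2 lapatinib response of the tested members of 9 lists with NT siRNA (grey) and FOXA1 siRNA (red), as boxes with the median, the middle 50%, whiskers to 1.5 times the box length and single genes beyond. The medians of the mitosis list are -1.33 and -0.68 and those of the luminal transcription factors 0.58 and 0.41.

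On the negative side, luminal transcription factors had 6 negative members and 1 positive member of 31 tested (19.4% and 3.23%, against 3.2% and 3.99% of all genes). The block gave 11 and 4. The list as a whole did not shift as far, with a median interaction of -0.07. Its median response went from 0.58 (NT siRNA) to 0.41 (FOXA1 siRNA). Without 1 library, between 4 and 8 members were negative, 4 without FOXA1 siRNA DMSO replicate 3, FOXA1 siRNA lapatinib replicate 1 or NT DMSO replicate 1.

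GATA3, which specifies the luminal lineage together with FOXA1 (chr10:8045333-8075198), had normalized counts of 2828, 2794 and 2831 (NT siRNA, DMSO), 5244, 4338 and 5556 (NT siRNA, lapatinib), 2688, 2792 and 2907 (FOXA1 siRNA, DMSO) and 2843, 2689 and 3164 (FOXA1 siRNA, lapatinib). The NT lapatinib libraries stood above all others, and the 9 remaining libraries lay between 2688 and 3164. The interaction of GATA3 was -0.79 ± 0.12 (adjusted p = 0.00269), from a response of 0.84 to 0.05. The grainyhead factor GRHL1 resembled GATA3 in having almost no response left, 0.47 to 0.03, with an interaction of -0.44 ± 0.07.

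KLF5, a Krüppel-like factor of proliferating epithelium, had a different pattern, with normalized counts of 1023, 999 and 1116 (NT siRNA, DMSO), 2876, 3033 and 3358 (NT siRNA, lapatinib), 1520.5, 1441 and 1735 (FOXA1 siRNA, DMSO) and 3053, 3163 and 3386 (FOXA1 siRNA, lapatinib). The lapatinib libraries of both siRNAs overlapped, and the groups differed in DMSO, where FOXA1 siRNA was higher by 0.58. Its interaction was -0.53 ± 0.11 (adjusted p = 0.0153). The ETS factor ELF5, which drives alveolar differentiation, also differed mainly in DMSO (0.93, against 0.19 in lapatinib) and had -0.74 ± 0.19, whereas the ETS factor EHF was lower with FOXA1 siRNA in both (-0.53 and -1.15) and had -0.62 ± 0.14. The calls of GATA3, GRHL1 and KLF5 held in each fit without 1 library, and those of EHF and ELF5 in 8 and 5 of 12. RUNX1, the positive member, had a response of -0.11 to 0.37 and an interaction of 0.48 ± 0.09 (adjusted p = 0.0068).

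Among 23 tested luminal and apocrine secretory markers, 2 were negative (8.7%), PIP and ELF5, with 5 negative and 2 positive under the block. The count was 1 without NT DMSO replicate 1, NT lapatinib replicate 1 or 3, FOXA1 siRNA DMSO replicate 1 or 3 or FOXA1 siRNA lapatinib replicate 1 or 2. PIP, the prolactin-induced protein secreted by apocrine cells (chr7:143132077-143139739), had normalized counts of 33.5, 53.5 and 33.5 (NT siRNA, DMSO), 193, 219.6 and 256 (NT siRNA, lapatinib), 23.0, 34.4 and 15.2 (FOXA1 siRNA, DMSO) and 30.0, 45.2 and 30.7 (FOXA1 siRNA, lapatinib). The NT lapatinib libraries were the high ones, and the other 3 groups overlapped or lay at or below 53.5 normalized counts. The interaction of PIP was -1.93 ± 0.40 (adjusted p = 0.0148), from a response of 2.47 to 0.54, and it was called in all 12 fits without 1 library. Of the mucins, MUC15 was negative on the log2 scale (-0.87 ± 0.17) although it gained more counts in lapatinib with FOXA1 siRNA than with NT siRNA. Its normalized counts were 128, 157 and 127 (NT siRNA, DMSO), 1048, 1341 and 958 (NT siRNA, lapatinib), 707, 701 and 694 (FOXA1 siRNA, DMSO) and 2882, 3445 and 2995 (FOXA1 siRNA, lapatinib), and the difference of the responses in counts was 1428. Of 10 tested ERBB receptors and ligands, 1 was negative, the drug target ERBB2 (-0.31 ± 0.08, kept in 2 of 12 fits). The block gave 2 in each direction. The ERBB2 partner ERBB3 (-0.13 ± 0.09) and the stress factor XBP1 (-0.15 ± 0.15) were not called. Under the block, ERBB3 had -0.13 ± 0.04 (adjusted p = 0.0503) and XBP1 -0.15 ± 0.10 (adjusted p = 0.36). FOXA1 siRNA had fitted effects of -1.22 in DMSO and -1.36 in lapatinib on ERBB3, and of -1.38 and -1.52 on XBP1. Lapatinib raised mean ERBB3 normalized counts by 13963 in the NT arm against 5055 in the FOXA1 siRNA arm. For XBP1 these rises were 40714.5 against 13158.

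FOXO factors and their targets had 3 negative members of 19 tested (15.8%) and none positive (1 at an unadjusted p under 0.05, 0 by DESeq2), with 3 and 1 under the block, and a list median of -0.09. The median response of the list was not lower with FOXA1 siRNA, going from 0.80 (NT siRNA) to 0.91 (FOXA1 siRNA). In each siRNA arm 14 members passed the test as raised by lapatinib. TXNIP, an inhibitor of thioredoxin and glucose uptake (chr1:145992435-145996579), had normalized counts of 1904, 2374 and 1861 (NT siRNA, DMSO), 11949, 12156 and 12667 (NT siRNA, lapatinib), 3098, 3042 and 3023 (FOXA1 siRNA, DMSO) and 10413, 11851 and 10825 (FOXA1 siRNA, lapatinib). FOXA1 siRNA was higher in DMSO without overlap and lower in lapatinib without overlap. The interaction of TXNIP was -0.73 ± 0.11 (adjusted p = 0.00326), from a response of 2.58 to 1.85. FBXO32, the ubiquitin ligase atrogin-1, had normalized counts of 1007, 1169 and 892 (NT siRNA, DMSO), 8885, 11159.8 and 9178 (NT siRNA, lapatinib), 2375, 1956 and 2015 (FOXA1 siRNA, DMSO) and 10089, 11198 and 10559.7 (FOXA1 siRNA, lapatinib), with overlapping lapatinib groups and a DMSO level that was higher by 1.05 with FOXA1 siRNA. Its interaction was -0.92 ± 0.15 (adjusted p = 0.00457). Both calls held without any 1 library. FOXO3 itself had -0.37 ± 0.10 (adjusted p = 0.0456) and stayed called in 1 of the 12 fits. The insulin receptor gene INSR, in the PI3K list, was alike in shape (1.90 to 1.05) and kept its call in 6 of 12.

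Lysosomal and autophagy genes had 6 negative members and 1 positive member of 68 tested (8.82% and 1.47%). The block gave 23 and 4. Their median interaction was -0.09, and 49 of 68 were below 0, against 48.9% of all genes. WIPI2, which recruits the lipidation machinery to the growing autophagosome, had normalized counts of 3609.6, 3675 and 3801 (NT siRNA, DMSO), 7907, 7964 and 8532 (NT siRNA, lapatinib), 3698, 3439 and 3706 (FOXA1 siRNA, DMSO) and 5898, 6178 and 6353 (FOXA1 siRNA, lapatinib). Its siRNA groups overlapped in DMSO and were apart in lapatinib, and the interaction of WIPI2 was -0.37 ± 0.07 (adjusted p = 0.00729). LAMP2, a lysosomal membrane protein, had -0.31 ± 0.07 and was higher with FOXA1 siRNA in both treatments, by 1.17 in DMSO and 0.86 in lapatinib. These calls held without any 1 library, and that of WIPI1 (-0.34 ± 0.07) in 10 of 12. PSAP, the precursor of the saposins (-0.19 ± 0.05), the autophagy protein ATG16L1 (-0.45 ± 0.12) and the acid sphingomyelinase SMPD1 (-0.50 ± 0.14) each kept the call in 2 of 12. The negative members numbered between 2 (without NT DMSO replicate 1 or FOXA1 siRNA lapatinib replicate 1) and 10 (without NT lapatinib replicate 2), and were 3 without NT lapatinib replicate 1 or 3, any 1 FOXA1 siRNA DMSO library or FOXA1 siRNA lapatinib replicate 2.

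Antigen presentation by MHC class I had 4 positive members of 20 tested (20%), 7 with the block, and none negative. Without 1 library the positive members numbered between 1 and 4, with 1 left without NT DMSO replicate 1, FOXA1 siRNA DMSO replicate 3 or FOXA1 siRNA lapatinib replicate 1, and 2 without NT lapatinib replicate 1 or 3, FOXA1 siRNA DMSO replicate 1 or 2 or FOXA1 siRNA lapatinib replicate 3. The peptide transporter subunit TAP1 had normalized counts of 811, 848 and 631 (NT siRNA, DMSO), 571, 641 and 489 (NT siRNA, lapatinib), 453, 437 and 410.1 (FOXA1 siRNA, DMSO) and 567, 629 and 489 (FOXA1 siRNA, lapatinib). FOXA1 siRNA was lower in DMSO without overlap, and in lapatinib the siRNA groups overlapped. Its interaction was 0.80 ± 0.18 (adjusted p = 0.0224, kept in 8 of 12 fits). The other subunit TAP2 had 0.77 ± 0.14 (adjusted p = 0.00721), from -1.02 to -0.25, and was kept in each fit. CALR (0.31) and CANX (0.24), chaperones of the endoplasmic reticulum, were the other 2, kept in 4 and 2 of the 12 fits. Interferon-stimulated genes had 1 negative member, ISG20 (-0.77), and no positive member of 40 (2 at an unadjusted p under 0.05, 0 by DESeq2), with 2 negative and 4 positive under the block and a median of 0.20 that was -0.02 without NT DMSO replicate 2.

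Epithelial junctions had calls on both sides, 5 positive and 2 negative of 37 tested (13.5% and 5.41%), with 7 in each direction under the block. Without 1 library between 2 and 6 members were positive and between 0 and 2 negative. The positive members numbered 2 without NT DMSO replicate 3, NT lapatinib replicate 3 or replicate 1 of either FOXA1 siRNA group, and 3 without NT DMSO replicate 1 or FOXA1 siRNA DMSO replicate 2 or 3. Both negative calls were kept only without NT lapatinib replicate 2 or FOXA1 siRNA DMSO replicate 2, and 1 was left without NT DMSO replicate 2 or FOXA1 siRNA lapatinib replicate 2. EPCAM, an epithelial adhesion molecule (chr2:47369311-47387020), had normalized counts of 8039, 7332 and 8068 (NT siRNA, DMSO), 4979, 5040.3 and 4858 (NT siRNA, lapatinib), 5748, 5760.2 and 5832 (FOXA1 siRNA, DMSO) and 5166, 5353 and 5335 (FOXA1 siRNA, lapatinib). The NT DMSO libraries were the high ones, and the interaction of EPCAM was 0.53 ± 0.06 (adjusted p = 0.000656), from -0.66 to -0.13. The tight junction gene CLDN1 went from -1.15 to 0.25 (1.41 ± 0.33, kept in 6 of 12 fits), and the plakophilins PKP2 (0.49) and PKP3 (0.26) and envoplakin EVPL (0.23) were positive. The cytolinker PPL (-0.30) and the polarity gene PARD6B (-0.41) were negative, PPL with a difference of 148 in counts, opposite in sign.

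The largest negative interactions, among genes called with and without the block that had a mean of at least 100 normalized counts, were in PRKAR2B, PALM2-AKAP2, SNX10, LMOD1, SCNN1G, B4GALNT3, SMPD3, NEDD4L, C17orf103, ABHD2, OSBPL6 and KIAA0513, and the call of each held without any 1 library. ABHD2, a serine hydrolase (chr15:89040998-89202355), had normalized counts of 3177, 2748 and 3402 (NT siRNA, DMSO), 8869, 7422 and 9743 (NT siRNA, lapatinib), 5083, 4194 and 5112 (FOXA1 siRNA, DMSO) and 4906, 4349 and 5283 (FOXA1 siRNA, lapatinib). Its response went from 1.48 to 0.01, with an interaction of -1.47 ± 0.16 (adjusted p = 0.000598). KIAA0513 was alike, with normalized counts of 1683, 1759.7 and 1572 (NT siRNA, DMSO), 4789, 5553 and 4630.2 (NT siRNA, lapatinib), 1865, 2123 and 1899 (FOXA1 siRNA, DMSO) and 2046, 2479 and 1952 (FOXA1 siRNA, lapatinib) and an interaction of -1.44 ± 0.13. In LMOD1, an actin nucleator, the interaction of -1.74 ± 0.21 came with a DMSO level that was 1.51 higher with FOXA1 siRNA and lapatinib levels that differed by -0.23.

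SCNN1G, the gamma subunit of the epithelial sodium channel, and NEDD4L, the ubiquitin ligase that removes that channel from the membrane, were both in this group. SCNN1G had normalized counts of 55.2, 58.5 and 57.5 (NT siRNA, DMSO), 364, 344 and 383 (NT siRNA, lapatinib), 29.0, 40.0 and 40.0 (FOXA1 siRNA, DMSO) and 64.0, 90.3 and 59.4 (FOXA1 siRNA, lapatinib) and an interaction of -1.70 ± 0.24. NEDD4L had normalized counts of 209.8, 175 and 198 (NT siRNA, DMSO), 666, 632 and 666 (NT siRNA, lapatinib), 113, 115 and 162 (FOXA1 siRNA, DMSO) and 158, 144 and 148 (FOXA1 siRNA, lapatinib) and an interaction of -1.54 ± 0.18. In both, the NT lapatinib libraries were far above the others. PRKAR2B, a regulatory subunit of protein kinase A, had the opposite layout, since the response with NT siRNA was 0.05 and with FOXA1 siRNA the normalized counts went from 91.9, 62.3 and 62.8 to 15.5, 2.88 and 11.3 (interaction -2.92 ± 0.65). PALM2-AKAP2, which encodes an anchor of that kinase, had -2.61 ± 0.54. The sphingomyelinase SMPD3 turned from 1.11 to -0.47, and the oxysterol-binding family member OSBPL6 went from -1.06 to -2.50.

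The largest positive interactions by the same rule were in CALHM1, JPH2, LRRC15, C5orf23, NPR3, BLM, PLCXD2, CDK1, CDH5, WNT9A, UBE2C and NR4A3. LRRC15, a leucine-rich repeat membrane protein (chr3:194355249-194369743), had normalized counts of 339.8, 299 and 407 (NT siRNA, DMSO), 54.7, 57.6 and 90.3 (NT siRNA, lapatinib), 1137, 893 and 1299 (FOXA1 siRNA, DMSO) and 884, 591 and 853 (FOXA1 siRNA, lapatinib). FOXA1 siRNA was higher in both treatments without overlap, by 1.67 in DMSO and 3.51 in lapatinib, and the interaction of LRRC15 was 1.84 ± 0.30 (adjusted p = 0.0044), while in counts the difference of the responses was -52.1. NPR3, the clearance receptor of natriuretic peptides (chr5:32690872-32791720), had normalized counts of 956, 747 and 957 (NT siRNA, DMSO), 168, 92.4 and 119 (NT siRNA, lapatinib), 918, 764 and 941 (FOXA1 siRNA, DMSO) and 410.1, 306 and 345 (FOXA1 siRNA, lapatinib) and an interaction of 1.52 ± 0.25. Its siRNA groups overlapped in DMSO and were apart in lapatinib. C5orf23 (1.63) had no entry in the RefSeq table and may share reads with NPR3, so it is uncertain as a separate gene.

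CALHM1, a voltage-gated calcium channel, had normalized counts of 20.7, 58.5 and 25.9 (NT siRNA, DMSO), 9.51, 8.94 and 9.23 (NT siRNA, lapatinib), 179, 218 and 148 (FOXA1 siRNA, DMSO) and 188, 229 and 177 (FOXA1 siRNA, lapatinib), so with NT siRNA it was below 10 in lapatinib, and its interaction of 2.03 ± 0.49 was kept in 6 of 12 fits without 1 library. JPH2, which tethers the endoplasmic reticulum to the plasma membrane, had 2.03 ± 0.55 (adjusted p = 0.0454, kept in 3 of 12). CDH5, the endothelial cadherin, had normalized counts of 469.8, 645 and 449 (NT siRNA, DMSO), 229, 365 and 191 (NT siRNA, lapatinib), 491, 480.0 and 379.7 (FOXA1 siRNA, DMSO) and 542, 702 and 427 (FOXA1 siRNA, lapatinib) and an interaction of 1.3 ± 0.34 (kept in 2 of 12). Of the other defining endothelial markers, PECAM1, TEK and CLDN5 were at or below 5.58 normalized counts in each library, VWF was at 39.1 to 93.6, and KDR was at 0 to 30.8, with group means of 2.91 (NT siRNA) and 0.976 (FOXA1 siRNA) in DMSO and of 20.7 and 14.1 in lapatinib. The summed level of the 6 markers, most of it CDH5, was 303 to 758 normalized counts, their part in the result was not tested, and of the 6 endothelial markers 3 were tested and 1 was called. The WNT ligand WNT9A (1.29 ± 0.27) and PLCXD2 (1.5 ± 0.21) kept their calls in each fit, and the orphan nuclear receptor NR4A3 (1.26 ± 0.29) in 8.

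**Figure D5:**
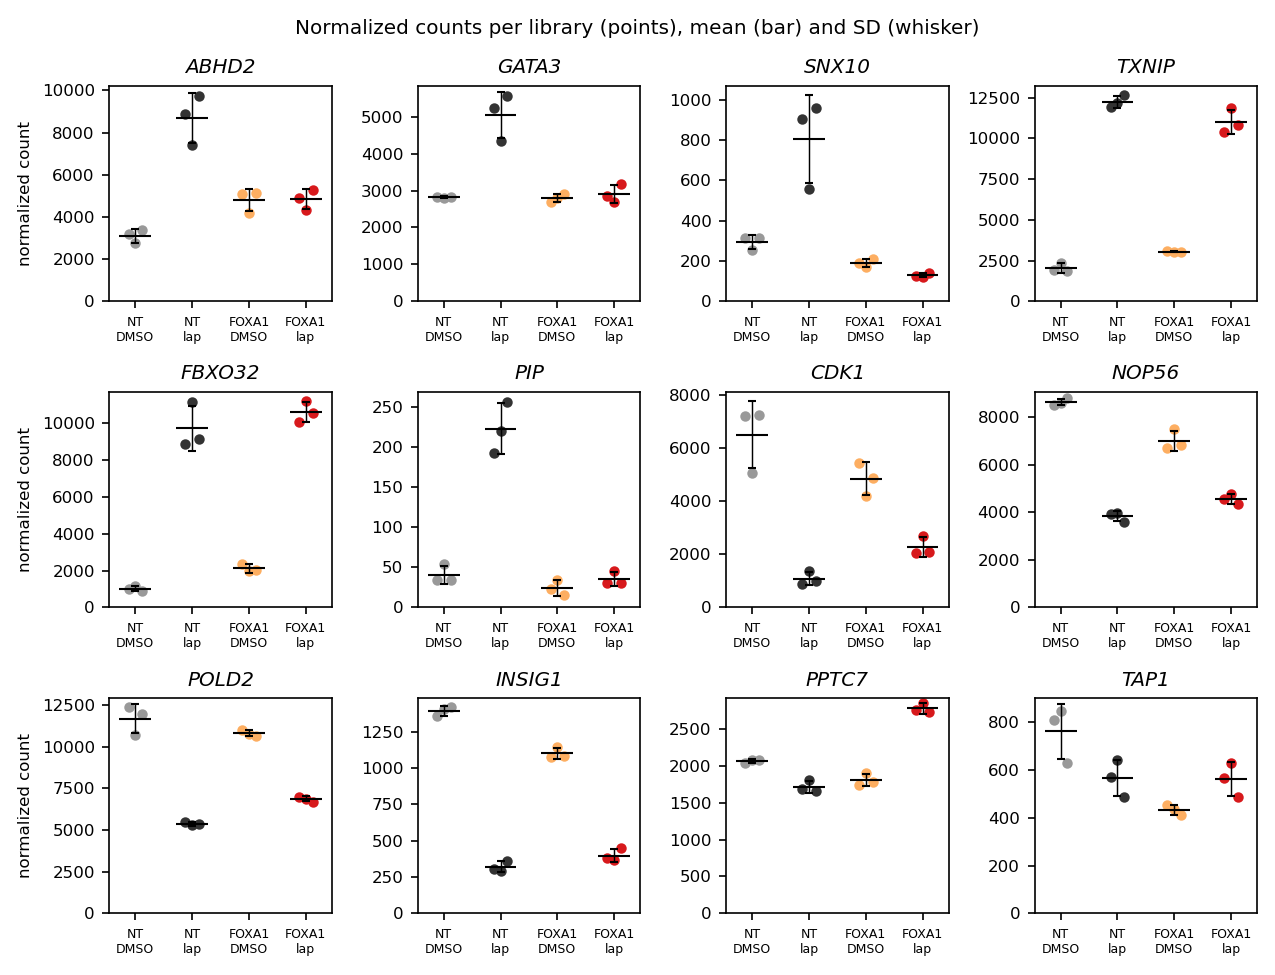
Normalized counts (vertical axes, from 0) in the 12 libraries for 12 genes, with points for libraries, horizontal bars for the group mean and whiskers for the SD (n = 3). In ABHD2, GATA3, SNX10 and PIP the NT lapatinib group alone is high, in FBXO32 the lapatinib groups are alike and the DMSO groups differ, and in NOP56, CDK1, POLD2 and INSIG1 the fall in lapatinib is smaller with FOXA1 siRNA.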

How the data were processed

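SKBR-3 RNAseq libraries, 3 for each combination of siRNA and drug, were grouped by the labels of the samples. The authors aligned reads to hg38 with STAR, quantified them with Salmon and collated them to genes, per the methods, although the columns are named as in RSEM output. For each library the authors deposited, for 20531 genes, an expected count, a signal scaled by the upper quartile, and the TPM. The labels name 2 kits, and whether strand was used in counting is not given in the sources used here, so overlapping and antisense genes are uncertain. The deposited signal and TPM were not tested.

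Expected counts were rounded to whole numbers, and genes reaching 10 counts in 1 library or more were fitted in edgeR 4.0.16 (R 4.3.3) with TMM normalization, the quasi-likelihood test and terms for siRNA, drug and their interaction. The study's methods name DESeq2. SE were computed from the log2 value and its F statistic. Between 25749578 and 32271850 expected counts were available per library. In simulated data with the interaction of 13896 genes fitted in the same way, 91% of interactions of 1 and 30% of those of 0.5 (log2) were recovered, so small interactions are often missed. The simulated interactions were placed only in genes with a mean of at least 100 counts. The simulated libraries had no spread shared by replicate number, unlike the real ones, so recovery in the real data may differ. These SE include the spread between the libraries of a group, and no other intervals are given.

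The replicate numbers of the labels paired the samples: over 11512 genes, deviations from the group means correlated in each of 18 same-numbered pairs (0.195 to 0.617, mean 0.360), against a mean of -0.171 for other pairs (-0.435 to 0.234). The ranges overlapped. Deviations sum to about 0 within a group, so the negative mean of other pairs largely follows from the positive mean of same-numbered pairs. What the numbers stand for is not given in the sources used here. For the lists described, the counts of the blocked fit are printed where it moved a count by over 1.5 times. Replicates differed beyond counting noise (chi-square per degree of freedom of 3.75 or more), so none was treated as a duplicate.

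The 59 lists (2071 entries, of which 2069 matched the files) were written from general knowledge, and members and lists were chosen with earlier results of these data known. A list was described with at least 8 tested members, by its counts and median beside those of all genes, with no test of the list. Named genes were FOXA1, ERBB2, ERBB3, XBP1 and MYC, the 12 genes per direction with the largest interaction among those called in both fits at a mean of at least 100 normalized counts, up to 6 called members per list and direction with the smallest p, and up to 8 per direction whose responses passed on opposite sides of 0. Other genes named were chosen after their values were seen. Some genes that the rule names are not reported here. The rule would have shown promoters of the genes with the largest interactions, and promoters holding the elements of the lists were shown instead. Gene positions were matched by Entrez ID to RefSeq GRCh38.p14 for 20372 genes. DESeq2 1.42.0, RLE and upper-quartile normalization, other count filters, the block, stricter thresholds, the difference in counts, and leaving out each library were the alternatives. Tables and plots used Python 3.11.15, numpy 2.4.6, pandas 2.3.3 and matplotlib 3.10.9.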

Additional observations from a re-analysis of the deposited data

Results flagged for a closer look

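In 16 genes the lapatinib responses lay on opposite sides of 0, both past an adjusted p under 0.05, and the interaction itself was called by edgeR's quasi-likelihood test. They are the 8 per direction with the smallest p of the 40 and 26 such genes, and each stayed called without any 1 library. Responses are given as NT siRNA to FOXA1 siRNA.

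Responses turned from rise to fall in 8 genes. SNX10, a sorting nexin of endosomes, had an interaction of -1.99 ± 0.26 (SE), with normalized counts of 315, 254 and 314 (NT siRNA, DMSO), 903, 556 and 958 (NT siRNA, lapatinib), 189, 170.2 and 208 (FOXA1 siRNA, DMSO) and 126, 121 and 142 (FOXA1 siRNA, lapatinib). SOCS6, a suppressor of cytokine signalling, had -0.73 ± 0.09 with a response of 0.31 to -0.42, and its level with FOXA1 siRNA was higher in DMSO by 0.88 and in lapatinib by 0.15. IQGAP1, a scaffold of the actin cytoskeleton, had -0.45 ± 0.05 and a response of 0.26 to -0.19. For FURIN, a proprotein convertase, the interaction was -0.68 ± 0.08 with a response of 0.20 to -0.47. FAM113B had -0.87 ± 0.10 (0.32 to -0.54), and MAP7D1, a microtubule-associated protein, had -1.11 ± 0.13 (0.51 to -0.60). SGSM1 was low, with normalized counts of 12.8, 12.9 and 10.5 (NT siRNA, DMSO), 42.8, 32.8 and 47.2 (NT siRNA, lapatinib), 15.0, 19.5 and 18.1 (FOXA1 siRNA, DMSO) and 8.26, 10.6 and 9.21 (FOXA1 siRNA, lapatinib), and had -2.65 ± 0.35. MAN1C1, a Golgi mannosidase, had -1.10 ± 0.14 (0.71 to -0.39).

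Responses turned from fall to rise in the other 8. PLCXD2 had 1.5 ± 0.21, with normalized counts of 119, 101 and 102 (NT siRNA, DMSO), 79.6, 62.6 and 75.9 (NT siRNA, lapatinib), 82.9, 86.5 and 80.9 (FOXA1 siRNA, DMSO) and 179.7, 133 and 168 (FOXA1 siRNA, lapatinib). LARS, the leucyl-tRNA synthetase, had 0.34 ± 0.06 (-0.19 to 0.15), and ELL2, an elongation factor of RNA polymerase II, had 0.56 ± 0.08 (-0.30 to 0.26). PPTC7, a mitochondrial phosphatase, had 0.89 ± 0.07, with normalized counts of 2039.7, 2082 and 2077 (NT siRNA, DMSO), 1684, 1813 and 1657 (NT siRNA, lapatinib), 1744, 1902 and 1778 (FOXA1 siRNA, DMSO) and 2754, 2859 and 2724 (FOXA1 siRNA, lapatinib), and the FOXA1 siRNA lapatinib libraries lay above all others. ENPP1, an ectonucleotide pyrophosphatase, had 1.10 ± 0.14 (-0.48 to 0.62). FLII had 0.39 ± 0.06 (-0.13 to 0.27), the poly(A)-binding protein PABPC4 0.47 ± 0.07 (-0.22 to 0.25) and THOC6, of the mRNA export complex THO, 0.79 ± 0.13 (-0.56 to 0.23).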

How the results depend on the processing

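The block raised the counts from 449 negative and 559 positive genes to 1292 and 1561. An adjusted p under 0.01 left 148 and 156, and a size of at least 0.5 left 224 and 250. DESeq2 called 627 and 811, sharing 436 and 551, with no adjusted p for 1905 genes. RLE normalization gave 449 and 553, upper-quartile normalization 445 and 596, no filter on low counts 376 and 536, and at least 10 counts in every sample 494 and 567. Without 1 library, in fits with no block, the counts were 242 to 583 and 300 to 782. The block changed the call of none of the 197 named genes. Most of them were named for being called, and the blocked calls held all 449 and 559, so this is no separate support. The interaction of FOXA1, which was not called, was 0.069 without FOXA1 siRNA DMSO replicate 3 and 0.073 without FOXA1 siRNA lapatinib replicate 1, within a range of -0.20 to 0.07. On the scale of normalized counts, 191 of the 197 named genes kept their direction, by the sign of the mean difference alone. The exceptions were MUC15 (1428), PPL (148) and FOXN1 (7.56), negative on the log2 scale, and LRRC15 (-52.1), HSPA4L (-83.4) and VDR (-25.9), positive on it. Among the 191 are genes whose difference was smaller than its SD over the replicate numbers. Examples are OSBPL6 (-3.17, SD 17.5), LAMP2 (-83.9, SD 116), FBXO32 (-218, SD 506) and PRKAR2B (-70.0, SD 83.4). The 191 are therefore not all shown to differ in counts. Upper-quartile normalization ended the call of 11 named genes, no filter that of 13, and leaving out 1 library that of 15 to 85. Interactions of 0.5 were recovered in 30% of simulated cases, all in genes with a mean of at least 100 counts. A pathway without calls is therefore not shown to be additive. The causes of these changes were not tested.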

Other observations

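Some signalling lists held calls in 1 direction only, which the replicate block turned into calls on both sides (all genes: 3.2% negative and 3.99% positive, and with the block 9.22% and 11.1%). The Notch list held calls on both sides in either fit. YAP and Hippo genes had 3 negative members of 22 tested (13.6%), the coactivator YAP1 (-0.26), the DNA-binding partner TEAD3 (-0.69) and the TEAD cofactor VGLL1 (-0.35), and 0 positive (3 at an unadjusted p under 0.05, 1 by DESeq2), although the median of the list was 0.06, and the block gave 5 negative and 4 positive. The negative members numbered 0 without replicate 3 of either DMSO group, 3 without NT DMSO replicate 2, 2 without replicate 2 of either lapatinib group, and 1 in the other 7 fits without 1 library. A single member was positive without NT DMSO replicate 2 or FOXA1 siRNA lapatinib replicate 3. Cytokine receptors, STAT and SOCS genes had 3 negative members of 34 (8.82%), SOCS2, SOCS6 and the receptor subunit IL13RA1, and 0 positive (4 at an unadjusted p under 0.05, 1 by DESeq2 and 1 without FOXA1 siRNA DMSO replicate 2), while the block gave 5 in each direction. SOCS2, an inhibitor of growth hormone signalling, had normalized counts of 132, 115 and 149 (NT siRNA, DMSO), 605, 464 and 693 (NT siRNA, lapatinib), 33.0, 34.4 and 22.8 (FOXA1 siRNA, DMSO) and 52.7, 47.1 and 53.2 (FOXA1 siRNA, lapatinib) and an interaction of -1.40 ± 0.28 (SE), with each fit without 1 library keeping the call. Among Notch genes, the glycosyltransferase LFNG was negative, with normalized counts of 186, 226 and 204 (NT siRNA, DMSO), 471, 442 and 568 (NT siRNA, lapatinib), 103, 102 and 95.2 (FOXA1 siRNA, DMSO) and 105, 85.5 and 106 (FOXA1 siRNA, lapatinib) and an interaction of -1.28 ± 0.18, and the target HES4 positive (0.53), of 31 tested, with 5 negative and 4 positive under the block. In the BCL2 family of 18 (11.1% negative), the survival gene BCL2L1 (-0.46 ± 0.10) and the mitophagy receptor BNIP3L (-0.60 ± 0.15) were negative and 0 positive (2 at an unadjusted p under 0.05, 1 by DESeq2, 1 with the block), and these calls held in 11 and 4 of the 12 fits without 1 library.

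The positive members of the NF-kB list were CCL2 and BIRC3, both low in level, of 21 tested (9.52%), with 7 positive under the block. CCL2, a monocyte chemokine, had normalized counts of 29.5, 30.7 and 35.5 (NT siRNA, DMSO), 9.51, 12.9 and 11.3 (NT siRNA, lapatinib), 24.0, 26.0 and 26.6 (FOXA1 siRNA, DMSO) and 24.8, 27.9 and 24.6 (FOXA1 siRNA, lapatinib) and an interaction of 1.5 ± 0.28, kept in each fit. BIRC3, an inhibitor of apoptosis in the NF-kB pathway, had 1.42 ± 0.32, with a response of -0.70 to 0.72, and was kept in 11 of 12. Hypoxia targets had 4 positive members and 1 negative member of 24 tested (16.7% and 4.17%), LOXL2 (1.17), P4HA1 (0.38), SLC2A1 and ERO1L against the hypoxia factor EPAS1 (-0.43). The block gave 7 positive and 5 negative. The positive members numbered 2 without NT DMSO replicate 3, NT lapatinib replicate 1 or FOXA1 siRNA DMSO replicate 1, and 2 were negative without NT lapatinib replicate 2 or FOXA1 siRNA DMSO replicate 1. Forkhead factors had 2 negative members of 23, FOXN1 (-1.64, opposite in sign in counts) and FOXO3, and 1 positive, FOXK2 (0.21), with 4 negative and 2 positive under the block, and these 3 calls held in 11, 1 and 3 of the 12 fits without 1 library. EMT factors and mesenchymal markers held 0 calls among 11 tested by edgeR's quasi-likelihood test, 0 by DESeq2, 1 negative at an unadjusted p under 0.05 and 1 negative with the replicate block.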
